A study of Mus musculus with 69 samples.

Results

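The early transcriptional response to IL-4 was examined in bone marrow-derived macrophages (BMDMs) of SPRET mice, by comparing RNA-seq libraries made after 1 hour of IL-4 with basal libraries of the same time course. The comparison took the 4 libraries whose labels give the SPRET time course at these times, 2 basal and 2 after 1 hour of IL-4, of 69 samples in the series. SPRET is the strain SPRET/EiJ, an inbred line of Mus spretus, and the labels name no engineered allele in either group. The study's methods state that female mice of 8 to 12 weeks were used, and that libraries of poly(A)-enriched mRNA were made in biological replicates. Here, p-values set each change against the spread between replicate libraries, pooled over all groups of a model. The labels give 7 days of differentiation in medium with M-CSF, no treatment for the basal group, and 20 ng/ml of recombinant IL-4 for 1 hour. For comparison, the same time course held 2 basal and 2 1-hour libraries of C57 (C57BL/6J) and SPRET libraries at 6 and 24 hours, for 16 libraries in 8 groups of 2. Other tables held 2 basal and 2 1-hour libraries of Egr2 fl/fl mice, whose floxed Egr2 alleles were used without Cre, and 3 basal and 3 24-hour libraries of SPRET BMDMs made for a comparison of strains.

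IL-4 binds a receptor that contains the IL-4 receptor alpha chain, encoded by Il4ra, and signals through the Janus kinases JAK1 and JAK3 to the transcription factor STAT6. Phosphorylated STAT6 enters the nucleus and binds sites in which the bases TTC and GAA are separated by a short spacer. In macrophages, this leads to the alternative or type 2 state, known for arginase, lectins and chemokines, and for transcription factors such as EGR2, IRF4 and PPARG that act on later genes.

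The 4 libraries held 12.8 M and 17.8 M tags in the basal group and 11.1 M and 6.76 M tags after 1 hour. Across genes, replicates had a Pearson r of 0.989 in either group. Of 9 macrophage markers, none passed the test, and their summed expression was between 52153 and 54786 TPM (transcripts, scaled by length and library size) in each library. Lyz2, Cd68, Csf1r and Adgre1 were each at 675 TPM or more, whereas Fcgr1, encoding an Fc receptor, did not exceed 0.244 TPM. None of the markers of dendritic cells, neutrophils, T and NK cells, B cells, mast cells, stromal cells or erythroid cells was called. Most of them were too low to be tested, so this says little about the share of such cells. The numbers tested were 3 of 7 for dendritic cells, 2 of 9 for neutrophils and 2 of 8 for T and NK cells. They were 2 of 7 each for mast cells and stromal cells, and no marker of B cells or erythroid cells was tested. Among all these sets, the highest summed level in a library was 79.4 TPM, for the neutrophil markers. Of these 9 markers, 7 were under 1 TPM in all 4 libraries, with S100a9, Ly6g, Ngp and Retnlg at 0. The sum of the neutrophil markers thus came almost wholly from the others, so their RNA was not absent. In bulk samples, a change in RNA per cell cannot be told apart from a change in the share of cells that hold it.

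After 1 hour of IL-4, 171 of 12088 genes tested were raised (1.41%) and 57 were lowered (0.472%). A gene was called when it changed more than 2-fold on the log2(TPM + 1) scale with an adjusted p under 0.05 from limma, in a single model of the 16 libraries of the time course. The called genes numbered 228 in all (1.89% of those tested). On the log2 scale, fold changes had a median of -0.01 over the genes tested, 1.51 over the raised genes and -1.44 over the lowered genes. Of the raised genes, 50 passed 4-fold and 19 passed 8-fold, whereas 11 lowered genes passed 4-fold. An adjusted p under 0.05 without a limit on the fold change was reached by 584 genes that were higher and 474 that were lower. The raised genes had a median of 5.78 TPM under basal conditions and 26.0 TPM after 1 hour, and the lowered genes went from a median of 18.4 TPM to 5.17 TPM. On the raised side, the genes nearest to the 2-fold limit were Bhlhe40, called at a log2 fold change of 1.00, and Arg1, which was not called at 0.99. On the lowered side, Osgin1 was called at -1.003 and Slc38a2 was not called at -0.999.

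**Figure D1:**
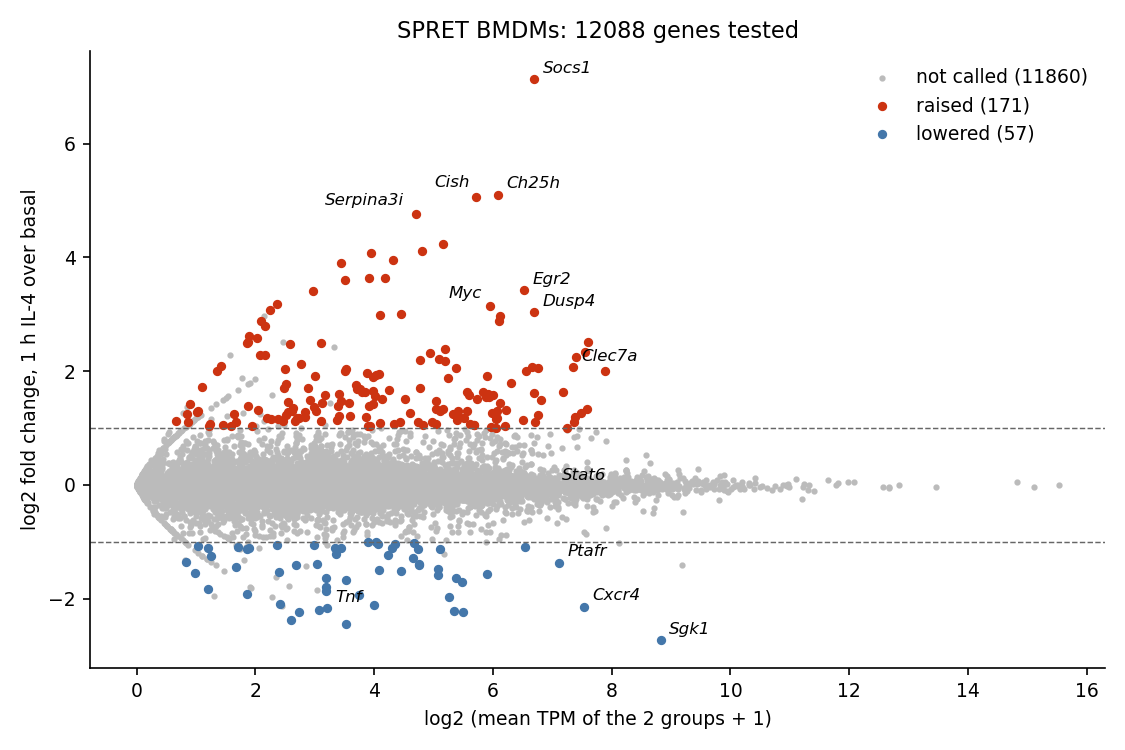
Log2 fold change of each of 12088 genes in SPRET BMDMs after 1 hour of IL-4 (vertical axis) against the log2 of the mean TPM of the 2 groups plus 1 (horizontal axis). Red points are the 171 raised genes, blue points the 57 lowered genes and grey points genes that were not called. Dashed lines mark 2-fold. Socs1 stands highest and Sgk1 lowest, while Stat6 lies near 0.

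The largest rise was that of Socs1, which encodes a suppressor of cytokine signalling that binds Janus kinases (chr16:10783809-10785536, minus strand, mm10). Socs1 was at 0.207 and 0.763 TPM in the basal libraries and 196 and 214 TPM at 1 hour (log2 fold change 7.14 ± 0.31 (SE), adjusted p = 1.01e-08). Ch25h, which encodes cholesterol 25-hydroxylase, was at 2.14 and 3.64 TPM in the basal libraries and 136 and 125 TPM at 1 hour (log2 fold change 5.10 ± 0.15 (SE), adjusted p = 2.64e-10). Cish, encoding another member of the SOCS family (chr9:107296659-107302784, plus strand), rose from 1.88 and 2.25 TPM to 103 and 98.6 TPM (log2 fold change 5.06 ± 0.07 (SE), adjusted p = 1.04e-12). In each of these genes, both basal libraries were far below both libraries at 1 hour. The ratio of the group means was 48.9 for Cish, on the TPM scale without a pseudocount.

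**Figure D2:**
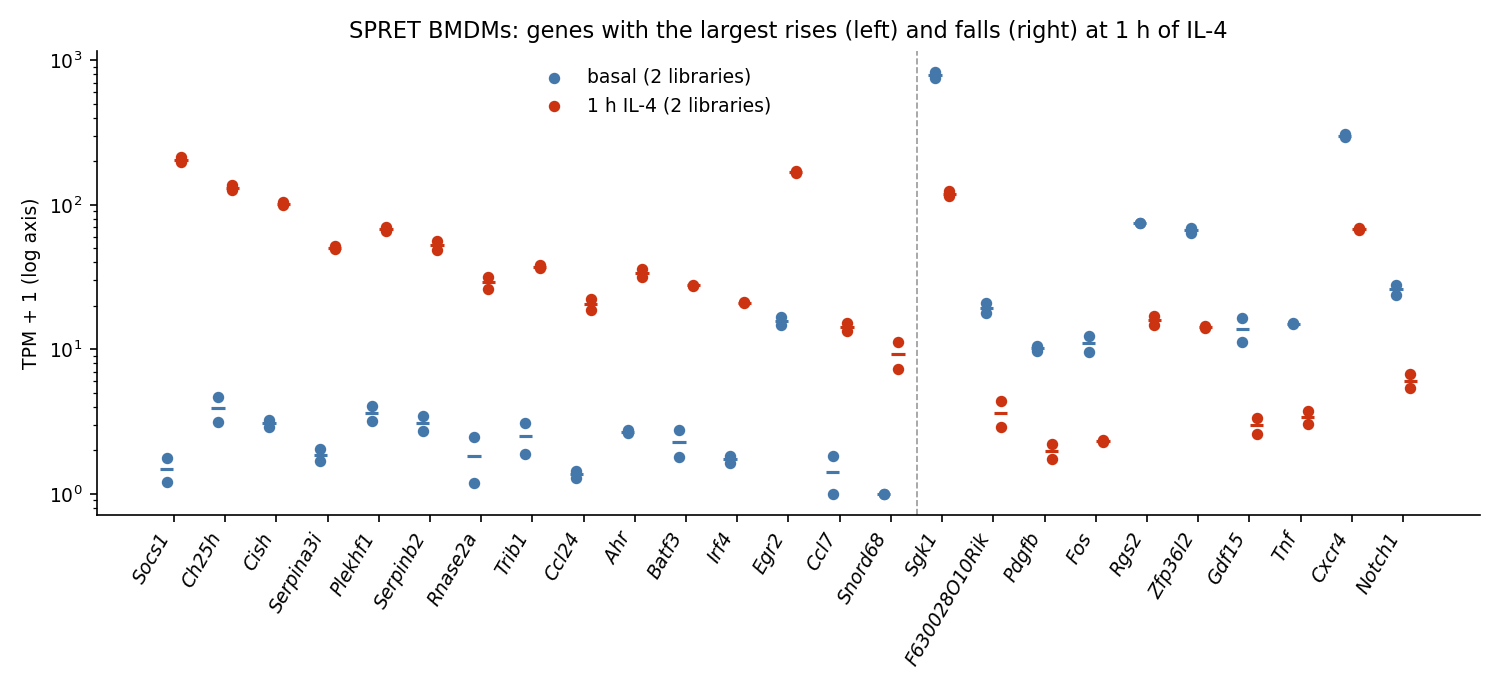
TPM plus 1 on a log axis in each SPRET library for the 15 genes with the largest rises (left of the dashed line) and the 10 with the largest falls (right). Points are single libraries, blue for basal and red for 1 hour of IL-4, and bars are group means. The genes were chosen for their changes between these libraries. Socs1 spans the widest range, from 0.207 and 0.763 TPM to 196 and 214 TPM.

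Large rises were also found for genes of other functions. Serpina3i, of the Serpina3 family of protease inhibitors, was at 1.04 and 0.679 TPM in the basal libraries and 50.4 and 48.4 TPM at 1 hour (log2 fold change 4.77 ± 0.14 (SE), adjusted p = 3.03e-10). Serpinb2, encoding plasminogen activator inhibitor 2, was at 2.44 and 1.70 TPM in the basal libraries and 55.2 and 47.9 TPM at 1 hour. Plekhf1, encoding a phosphoinositide-binding protein of endosomes and lysosomes, was at 2.18 and 3.04 TPM in the basal libraries and 64.7 and 69.0 TPM at 1 hour. Each of these genes was at low levels in the basal libraries and at 47.9 TPM or more in both libraries at 1 hour. Rnase2a, encoding a secreted ribonuclease, was at 0.183 and 1.49 TPM in the basal libraries and 30.9 and 25.3 TPM at 1 hour, and Trib1, encoding a pseudokinase that directs C/EBP proteins to degradation, was at 2.10 and 0.899 TPM in the basal libraries and 35.7 and 37.1 TPM at 1 hour. Ahr, encoding the aryl hydrocarbon receptor, was at 1.65 and 1.74 TPM in the basal libraries and 34.7 and 30.9 TPM at 1 hour. Members of the Serpina3 and Rnase2 families have close copies in the genome, so reads could be split between copies, and values of Serpina3i and Rnase2a are uncertain. Snord68 was listed at 0 in both basal libraries and at 6.30 and 10.3 TPM at 1 hour. As this gene is 47 bases long, and the libraries were made from poly(A)-enriched mRNA, its level is uncertain.

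Promoter sequences were read from RefSeq (GRCm38.p6, the C57 reference and not the SPRET genome) to show where the letters of STAT sites, TTC followed by GAA after a spacer of any 3 or any 4 bases, stand at strongly raised genes. Either pattern reads the same on both strands. The window searched, 250 before and 50 after the start, held 1 or both of them in 14.6% of all 32851 promoters listed, the spacer of 3 bases in 8.30% and that of 4 bases in 6.95%. A promoter was matched to 129 of the 171 raised genes (75.4%) and to 77.9% of the genes tested. As this is fewer than 80%, a share over the raised genes is void and is not given. The stretches around the matches of 5 genes, with the matched letters in capitals and 20 bases on either side where the window allowed it, are shown because they belong to genes raised more than 8-fold. At Cish, the first match begins at the annotated start, so the matched letters alone are given (chr9:107296659-107296678, plus strand). The other stretches lie at chr12:104263000-104263117 (plus strand), chr7:38228084-38228133 (minus strand), chr1:107511413-107511461 (plus strand) and chr1:191098164-191098203 (plus strand).
Cish: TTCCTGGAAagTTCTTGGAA
Serpina3i: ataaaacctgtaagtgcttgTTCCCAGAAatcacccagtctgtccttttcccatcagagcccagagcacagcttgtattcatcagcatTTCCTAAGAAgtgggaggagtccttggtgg
Plekhf1: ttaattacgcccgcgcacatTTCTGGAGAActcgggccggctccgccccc
Serpinb2: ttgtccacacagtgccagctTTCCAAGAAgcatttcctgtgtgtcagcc
Batf3: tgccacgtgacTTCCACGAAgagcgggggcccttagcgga

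Cish and Serpina3i each had 2 matches, and at Cish both had the spacer of 3 bases. Of the 19 genes raised more than 8-fold, 11 had a promoter (57.9%), so no share is to be read from these genes either. Among those 11, no match lay in the windows of Socs1, Ch25h, Rnase2a, Irf4, Egr2 and P2ry1. This says only that these letters are not in those windows. Smaller rises with a match included Trem1, Tfec and Clec7a, whose stretches differ in spacer and position.
Trem1: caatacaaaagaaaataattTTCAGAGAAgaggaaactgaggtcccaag
Tfec: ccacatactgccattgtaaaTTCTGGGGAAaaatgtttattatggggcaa
Clec7a: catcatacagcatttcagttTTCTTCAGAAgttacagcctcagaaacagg

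The matches of these 3 genes began 171, 200 and 131 bases before the start. The stretches lie at chr17:48232548-48232596 (plus strand), chr6:16898612-16898661 (minus strand) and chr6:129472881-129472930 (minus strand). Trem1, a receptor gene described further below, was at 2.67 and 3.01 TPM in the basal libraries and 29.3 and 29.8 TPM at 1 hour, and Clec7a was at 62.0 and 61.6 TPM in the basal libraries and 273 and 254 TPM at 1 hour. A match is a description of the reference sequence, and binding was not measured here.

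Of the genes of the IL-4 receptor, the Janus kinases, the STATs and their regulators, 1 of 23 tested was raised and none was lowered (1.41% and 0.472% of all genes), with a median log2 fold change of -0.002 (-0.01 for all genes). The receptor chain, the kinases and STAT6 were not called. Il4ra was at 34.2 and 35.9 TPM in the basal libraries and 30.8 and 29.1 TPM at 1 hour, Stat6 at 124 and 135 TPM in the basal libraries and 127 and 128 TPM at 1 hour, Jak1 at 84.5 and 87.7 TPM in the basal libraries and 92.4 and 83.5 TPM at 1 hour and Jak3 at 22.9 and 20.5 TPM in the basal libraries and 24.1 and 20.4 TPM at 1 hour. Their log2 fold changes were -0.22, -0.02, 0.03 and 0.03 with adjusted p-values from limma between 0.0918 and 0.956. Jak2, encoding a further Janus kinase, was at 78.7 and 93.4 TPM in the basal libraries and 163 and 157 TPM at 1 hour, a log2 fold change of 0.89 with an adjusted p of 3.60e-06 from limma, within 2-fold. The raised member was Irs2, encoding an adaptor that binds the IL-4 receptor and the insulin receptor, at 0.910 and 1.87 TPM in the basal libraries and 4.25 and 5.53 TPM at 1 hour (log2 fold change 1.32 ± 0.18 (SE), adjusted p = 3.56e-04). With a pseudocount of 5 TPM, Irs2 was at 0.63 and no longer called.

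Of 8 SOCS genes, the feedback inhibitors of this pathway, 4 were raised, where 1.41% of all genes tested were, and the median of the family was 0.87. Next to Socs1 and Cish, Socs2 went from 6.62 and 5.33 TPM to 29.4 and 22.6 TPM (log2 fold change 1.95 ± 0.16 (SE), adjusted p = 3.60e-06). Socs5 went from 7.76 and 7.49 TPM to 22.3 and 21.7 TPM. The other members lay between -0.36 and 0.32 on the log2 scale. Socs3 was among them at 0.32, with an adjusted p of 0.0274 from limma.

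**Figure D3:**
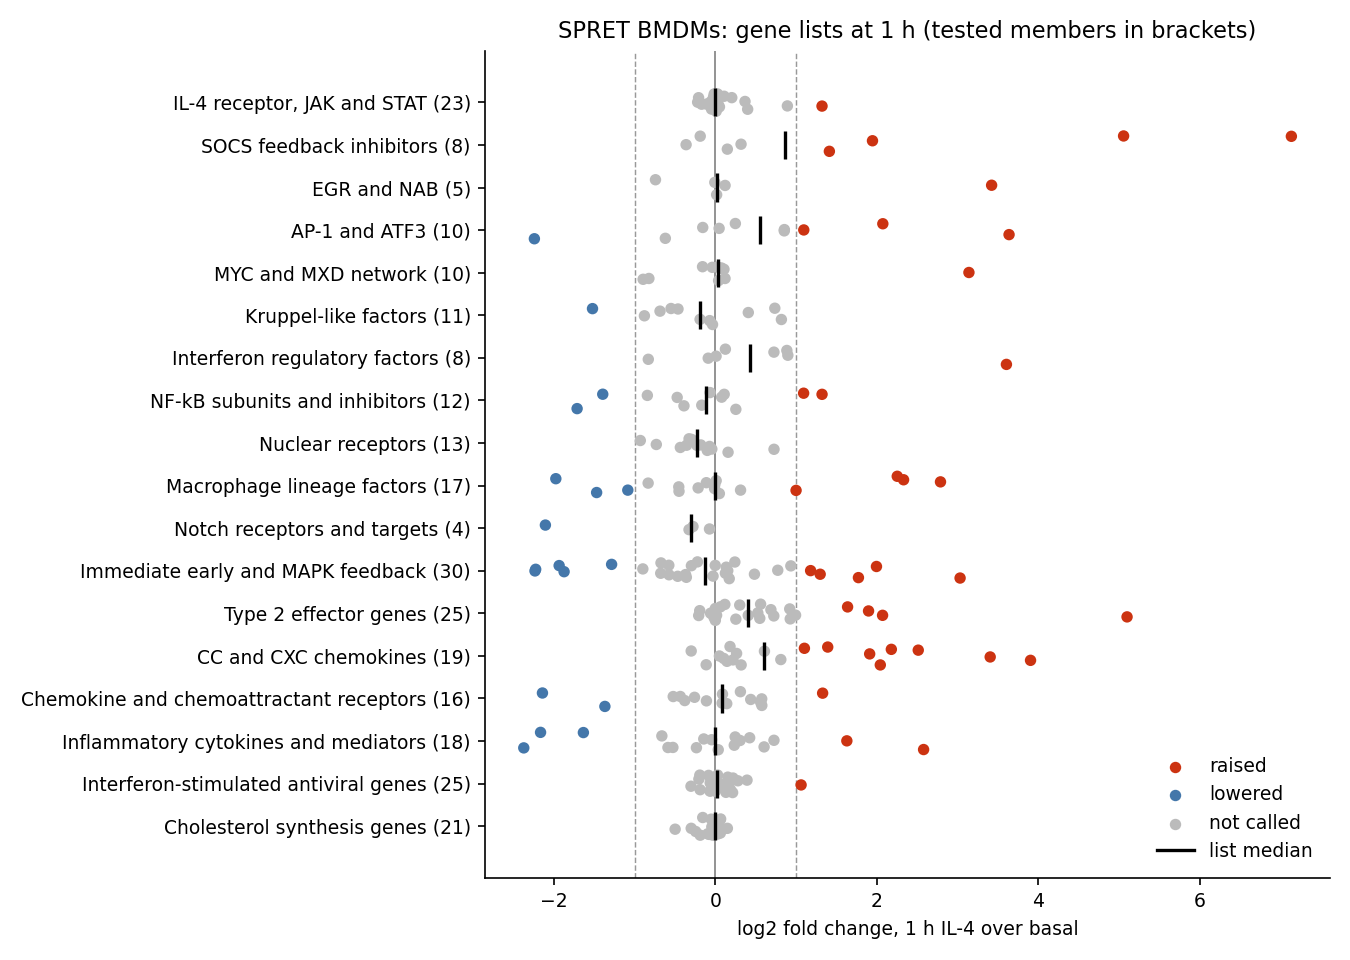
Log2 fold change at 1 hour of IL-4 (horizontal axis) for the tested members of 18 gene lists (rows, with the number tested in brackets). Red points were raised, blue points lowered and grey points not called. Black bars are list medians, the grey line is the median of all genes, and dashed lines mark 2-fold. SOCS genes and chemokines extend to the right, while the immediate early list extends to both sides.

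Across all 18 lists, 275 different genes were tested, of which 38 were raised and 18 lowered. The lists were written with earlier results of these data known, and their counts are descriptions. Each count stands against 1.41% raised and 0.472% lowered over all genes tested.

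Transcription factors of several families moved within the hour. Egr2 encodes a zinc finger factor that acts at enhancers, and was at 13.8 and 15.8 TPM in the basal libraries and 165 and 171 TPM at 1 hour (log2 fold change 3.42 ± 0.06 (SE), adjusted p = 4.54e-12). It was the sole member called among the 5 EGR and NAB genes tested, and Egr1 was at 1.64 and 1.18 TPM in the basal libraries and 2.03 and 0.943 TPM at 1 hour. Irf4, encoding an interferon regulatory factor of alternatively activated macrophages, went from 0.636 and 0.820 TPM to 19.8 and 20.2 TPM (log2 fold change 3.61 ± 0.11 (SE), adjusted p = 6.36e-10). It was the sole one of 8 IRF genes that was called, with Irf8 at -0.83 and Irf1 at 0.90 on the log2 scale. Myc, encoding a factor of growth and metabolism, went from 11.9 and 11.3 TPM to 114 and 107 TPM (log2 fold change 3.14 ± 0.08 (SE), adjusted p = 7.78e-11). The partners and antagonists of MYC were not called, with Mxd1 at -0.89 and Mnt at -0.82, each with an adjusted p under 0.05.

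Genes of the AP-1 family were split. Batf3, which partners with IRF4, was at 1.78 and 0.787 TPM in the basal libraries and 26.6 and 26.9 TPM at 1 hour (log2 fold change 3.64 ± 0.18 (SE), adjusted p = 3.89e-08). Atf3 was at 38.3 and 37.0 TPM in the basal libraries and 157 and 167 TPM at 1 hour (log2 fold change 2.08 ± 0.04 (SE), adjusted p = 2.93e-11), and Jdp2, which represses AP-1 sites, was at 14.3 and 17.7 TPM in the basal libraries and 31.3 and 39.4 TPM at 1 hour. Jdp2 was below 2-fold when either SPRET basal replicate 1 (0.95) or SPRET 1-hour replicate 2 (0.93) was left out. Fos went the other way, from 8.61 and 11.4 TPM to 1.35 and 1.27 TPM (log2 fold change -2.24 ± 0.16 (SE), adjusted p = 6.54e-07), and Junb was at 130.3 and 106 TPM in the basal libraries and 75.8 and 76.3 TPM at 1 hour, a log2 fold change of -0.62 that was not called. Of 10 members tested, 3 were raised and 1 was lowered (1.41% and 0.472% of all genes).

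Among 17 factors of the macrophage lineage, 4 were raised and 3 lowered (1.41% and 0.472% of all genes), with a median of -0.01. Tfec, of the MITF family, was at 56.2 and 59.1 TPM in the basal libraries and 281 and 277 TPM at 1 hour (log2 fold change 2.25 ± 0.07 (SE), adjusted p = 6.79e-10). Id1, an inhibitor of basic helix-loop-helix factors, was at 0.270 and 0 TPM in the basal libraries and 6.85 and 6.74 TPM at 1 hour. These rises stood beside falls of Cebpb, a factor that supports inflammatory and type 2 genes, from 72.4 and 48.0 TPM to 15.4 and 13.2 TPM (log2 fold change -1.98 ± 0.23 (SE), adjusted p = 7.35e-05), and of Id2, from 47.3 and 49.9 TPM to 16.5 and 17.3 TPM. A pair of related repressors moved in opposite directions. Bhlhe40 was at 101 and 98.9 TPM in the basal libraries and 199.6 and 202 TPM at 1 hour, at the 2-fold limit, and Bhlhe41 at 126 and 126 TPM in the basal libraries and 57.5 and 60.2 TPM at 1 hour. The call of Bhlhe40 was lost with median-ratio scaling (0.997), with quantile normalization (0.97), without SPRET basal replicate 2 (0.99) and without SPRET 1-hour replicate 2 (0.99). Spi1, Runx1 and Zeb2 lay between -0.11 and 0.05.

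NF-kB genes also moved both ways, with 2 of 12 raised and 2 lowered (1.41% and 0.472% of all genes). Rel, a subunit, was at 9.97 and 9.91 TPM in the basal libraries and 20.3 and 24.7 TPM at 1 hour, and Tnfaip3, encoding the inhibitor A20, was at 40.5 and 42.7 TPM in the basal libraries and 109.5 and 102 TPM at 1 hour (log2 fold change 1.32 ± 0.06 (SE), adjusted p = 1.03e-08). Bcl3 was at 65.5 and 68.7 TPM in the basal libraries and 21.1 and 18.5 TPM at 1 hour (log2 fold change -1.71 ± 0.09 (SE), adjusted p = 6.23e-08), and Nfkbiz was at 10.7 and 11.2 TPM in the basal libraries and 3.56 and 3.52 TPM at 1 hour, both being nuclear IkB proteins. Without SPRET 1-hour replicate 2, Rel was at 0.96 and no longer called. Of 11 Kruppel-like factors, 1 was lowered, Klf2, from 34.9 and 28.1 TPM to 12.1 and 8.65 TPM. Klf4, known from the type 2 state, was at 40.7 and 41.5 TPM in the basal libraries and 70.0 and 68.4 TPM at 1 hour, which is a log2 fold change of 0.74 with an adjusted p of 5.80e-07 from limma, below the 2-fold limit. No nuclear receptor among 13 was called, and Pparg was at 3.42 and 2.42 TPM in the basal libraries and 5.54 and 5.32 TPM at 1 hour (log2 fold change 0.73).

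The list of immediate early genes and feedback of MAP kinases held 5 raised and 5 lowered genes of 30 tested (1.41% and 0.472% of all genes), with a median of -0.12. Dusp4, encoding a phosphatase of MAP kinases in the nucleus, was at 20.4 and 22.6 TPM in the basal libraries and 181 and 185 TPM at 1 hour (log2 fold change 3.03 ± 0.07 (SE), adjusted p = 4.41e-11). Dusp1, encoding a related phosphatase, was at 14.6 and 12.3 TPM in the basal libraries and 2.98 and 2.86 TPM at 1 hour (log2 fold change -1.87 ± 0.11 (SE), adjusted p = 1.51e-07), so both went in opposite directions. Ier3 was at 37.5 and 35.4 TPM in the basal libraries and 168 and 131 TPM at 1 hour, and Ier2 at 37.1 and 32.7 TPM in the basal libraries and 13.3 and 14.1 TPM at 1 hour. The kinases Plk2 and Plk3 were at 7.13 and 8.57 TPM and 9.41 and 6.64 TPM at 1 hour, after 1.90 and 1.30 TPM and 3.36 and 2.55 TPM under basal conditions. Plk3 was below the limit without SPRET 1-hour replicate 1, at 0.96. The mRNA-decay factors of the ZFP36 family were split as well, with Zfp36l1 at 39.1 and 36.1 TPM in the basal libraries and 97.3 and 90.5 TPM at 1 hour and Zfp36l2 at 68.5 and 63.0 TPM in the basal libraries and 13.1 and 13.5 TPM at 1 hour (log2 fold change -2.23 ± 0.14 (SE), adjusted p = 2.86e-07). Btg2, an antiproliferative gene, was at 18.2 and 22.5 TPM in the basal libraries and 4.33 and 4.78 TPM at 1 hour, and Rgs2, encoding a regulator of G protein signalling, was at 73.6 and 73.8 TPM in the basal libraries and 16.1 and 13.7 TPM at 1 hour (log2 fold change -2.23 ± 0.08 (SE), adjusted p = 1.63e-09).

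The deepest fall was that of Sgk1, encoding a kinase induced by serum and glucocorticoids (chr10:21992223-21999902, plus strand). Sgk1 was at 749 and 831 TPM in the basal libraries and 115 and 123 TPM at 1 hour (log2 fold change -2.72 ± 0.06 (SE), adjusted p = 4.41e-11), a ratio of the means of 0.150. It was the called gene with the highest basal level among the 10 largest falls. Cxcr4, the receptor of CXCL12, was at 294 and 306 TPM in the basal libraries and 66.0 and 68.5 TPM at 1 hour (log2 fold change -2.14 ± 0.05 (SE), adjusted p = 7.60e-11). Notch1 was at 22.9 and 27.0 TPM in the basal libraries and 5.74 and 4.36 TPM at 1 hour, and was the sole gene called of 4 Notch receptors and targets tested. Pdgfb, encoding a growth factor of mesenchymal cells, was at 9.56 and 8.79 TPM in the basal libraries and 1.21 and 0.740 TPM at 1 hour, and Gdf15, encoding a stress-induced cytokine, was at 15.4 and 10.3 TPM in the basal libraries and 2.37 and 1.58 TPM at 1 hour. The gene F630028O10Rik on chromosome X was at 19.9 and 16.8 TPM in the basal libraries and 3.37 and 1.91 TPM at 1 hour.

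Several chemokine genes rose. Of these, 8 of 19 tested CC and CXC chemokines were raised and none was lowered (1.41% and 0.472% of all genes), with a median log2 fold change of 0.61. Ccl24, encoding an attractant of eosinophils, was at 0.294 and 0.433 TPM in the basal libraries and 21.1 and 17.8 TPM at 1 hour (log2 fold change 3.91 ± 0.15 (SE), adjusted p = 3.30e-09). The attractants of monocytes Ccl7 and Ccl2 were at 14.2 and 12.4 TPM and 9.06 and 7.22 TPM at 1 hour, after 0 and 0.817 TPM and 0.942 and 1.50 TPM in the basal libraries. Attractants of neutrophils were raised as well. Cxcl3 was at 50.8 and 63.4 TPM in the basal libraries and 316 and 343 TPM at 1 hour (log2 fold change 2.51 ± 0.17 (SE), adjusted p = 6.73e-07), Cxcl1 at 11.9 and 12.5 TPM in the basal libraries and 64.3 and 53.7 TPM at 1 hour and Cxcl2 at 22.4 and 26.0 TPM in the basal libraries and 92.9 and 94.5 TPM at 1 hour. Ccl4 and Ccl9 reached 22.8 and 18.8 TPM and 43.4 and 40.7 TPM. By contrast, 2 chemokines typical of the type 2 state were not called at this time. Ccl22 was at 0.836 and 1.08 TPM in the basal libraries and 1.23 and 1.20 TPM at 1 hour, and Ccl17 was listed at 0 in both basal libraries and at 0.582 and 0.947 TPM at 1 hour.

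Among 16 chemoattractant receptors, 1 was raised and 2 were lowered (1.41% and 0.472% of all genes). Gpr183, the receptor of oxysterols that are made from the product of CH25H, was at 19.0 and 19.6 TPM in the basal libraries and 53.7 and 46.4 TPM at 1 hour (log2 fold change 1.33 ± 0.12 (SE), adjusted p = 8.36e-06). Ptafr, the receptor of platelet-activating factor, was at 196 and 201 TPM in the basal libraries and 77.6 and 75.1 TPM at 1 hour (log2 fold change -1.37 ± 0.05 (SE), adjusted p = 9.43e-10), and Cxcr4 fell as given above. Of 18 inflammatory cytokines and mediators, 2 were raised and 3 lowered, with a median of -0.005, beside the same shares of all genes. Tnf was at 14.2 and 13.9 TPM in the basal libraries and 2.04 and 2.71 TPM at 1 hour (log2 fold change -2.17 ± 0.13 (SE), adjusted p = 1.77e-07), and Tnfsf9, encoding the ligand of 4-1BB, was at 12.4 and 13.3 TPM in the basal libraries and 3.39 and 3.54 TPM at 1 hour. Il1b was at 158 and 173 TPM in the basal libraries and 106 and 102 TPM at 1 hour, a log2 fold change of -0.66 with an adjusted p of 0.0338 from limma, short of 2-fold. The raised members were growth factors: Csf1, encoding M-CSF, was at 5.59 and 6.50 TPM in the basal libraries and 21.6 and 20.0 TPM at 1 hour (log2 fold change 1.63 ± 0.08 (SE), adjusted p = 5.23e-08), and Hbegf, encoding an EGF-like factor, was at 0.159 and 0.157 TPM in the basal libraries and 7.01 and 4.99 TPM at 1 hour.

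Of 25 genes of the type 2 effector list, 4 were raised and none was lowered (1.41% and 0.472% of all genes), with a median of 0.41. Beside Ch25h, these were Clec7a, encoding the lectin dectin-1, Slc7a2, encoding a transporter of arginine, and Cdh1, encoding E-cadherin. Slc7a2 was at 66.2 and 73.3 TPM in the basal libraries and 226 and 213 TPM at 1 hour (log2 fold change 1.64 ± 0.06 (SE), adjusted p = 3.35e-09), and Cdh1 at 6.07 and 5.33 TPM in the basal libraries and 23.5 and 24.4 TPM at 1 hour. A further 8 genes of the list were higher with an adjusted p under 0.05 but within 2-fold. Mrc1, encoding the mannose receptor, was among them at 144 and 149 TPM in the basal libraries and 287 and 269 TPM at 1 hour, and Arg1, encoding arginase 1, at 2.66 and 4.49 TPM in the basal libraries and 9.29 and 6.74 TPM at 1 hour. Arg1 passed 2-fold without SPRET basal replicate 2 (1.29), without SPRET 1-hour replicate 2 (1.20) and with a pseudocount of 0.1 TPM (1.17). Chil3 was at 1.40 and 1.64 TPM in the basal libraries and 1.55 and 1.42 TPM at 1 hour, and Retnla was listed at 0 in all 4 libraries.

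The remaining lists showed little change at 1 hour. Of 25 interferon-stimulated antiviral genes, 1 was raised, Ifi204, at 12.3 and 11.8 TPM in the basal libraries and 28.2 and 24.4 TPM at 1 hour, with a list median of 0.02. Ifi204 has close copies, and was below 2-fold without SPRET 1-hour replicate 1 (0.96). None of 21 genes of cholesterol synthesis was called, with values between -0.50 and 0.15.

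To ask where the response of SPRET differed from that of C57, the difference between both 1-hour responses was tested for each gene as an interaction in the same model. The C57 libraries had their own basal group. In C57, 85 genes were raised (0.703%) and 21 lowered (0.174%). Of the 171 genes raised in SPRET, 55 were also raised in C57, which is 32.2% of the SPRET genes and 64.7% of the C57 genes. For lowered genes, 14 were shared, 24.6% of those in SPRET and 66.7% of those in C57. No gene was raised in one strain and lowered in the other. Across the genes tested, the responses had a Pearson r of 0.46, with genes not being independent replicates.

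The difference itself was called for 98 genes, of which 68 had a higher response in SPRET (0.563% of genes tested) and 30 a lower one (0.248%), either by a deeper fall or by a smaller rise. Of the 68, 60 were raised in SPRET, and 10 of these 60 were raised in C57 too. In 18 of the 60, both C57 group means were under 1 TPM, where log2(TPM + 1) understates changes. Of the 30, 15 were lowered in SPRET and 8 were raised in C57. As the raised genes were picked by their size in SPRET, their responses in SPRET are favoured in this count, whereas the test over all genes is not. Read from the C57 side, the 85 genes raised in C57 had a median log2 fold change of 1.32 in C57 and 1.41 in SPRET, with 21 higher and 13 lower in SPRET at an adjusted p under 0.05.

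**Figure D4:**
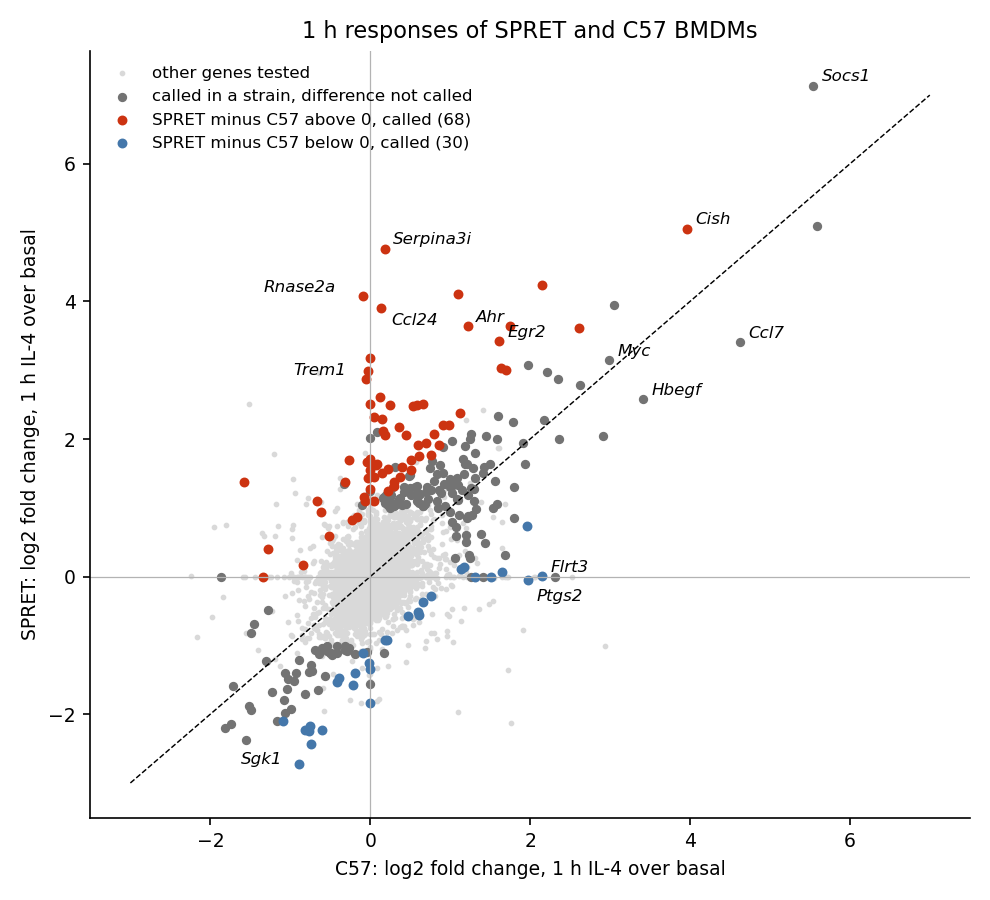
Log2 fold change at 1 hour of IL-4 in SPRET (vertical axis) against C57 (horizontal axis) for 12088 genes. Red and blue points are genes whose difference between strains was called, above (68) or below 0 (30), dark grey points were called in a strain without a called difference, and the dashed line marks equal responses. Serpina3i, Rnase2a, Ccl24 and Trem1 lie high on the vertical axis near 0 in C57, and Flrt3 and Ptgs2 lie near 0 in SPRET.

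Genes with the largest differences were raised in SPRET and near 0 in C57. Serpina3i was at 0 and 0.067 TPM in basal C57 libraries and 0.252 and 0.102 TPM in those at 1 hour (log2 difference 4.58 ± 0.20 (SE), adjusted p = 3.23e-07). Rnase2a was at 1.07 and 0.424 TPM in basal C57 libraries and 0.322 and 0.977 TPM in those at 1 hour (log2 difference 4.17 ± 0.50 (SE), adjusted p = 5.71e-04), and Ccl24 at 0.072 and 0.227 TPM in basal C57 libraries and 0.172 and 0.348 TPM in those at 1 hour (log2 difference 3.77 ± 0.21 (SE), adjusted p = 1.07e-06). Trem1, encoding a receptor that amplifies inflammatory signals, was at 0.213 and 0.193 TPM in basal C57 libraries and 0.183 and 0.185 TPM in those at 1 hour (log2 difference 3.02 ± 0.14 (SE), adjusted p = 3.23e-07). The difference of Snord68, which is 47 bases long, rests on a gene that was listed at 0 in all 4 C57 libraries. Reads of SPRET were mapped to a genome built from its variants, and its effect on genes with close copies, such as Serpina3i and Rnase2a, was not tested.

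For other genes, the size of the response or the basal level differed. Egr2 started higher in C57, at 63.2 and 64.9 TPM in basal C57 libraries and 197 and 199.9 TPM in those at 1 hour (log2 difference 1.81 ± 0.09 (SE), adjusted p = 3.23e-07). Basal levels were also higher in C57 for Atf3, which was at 218 and 220.0 TPM in basal C57 libraries and 377 and 388 TPM in those at 1 hour (log2 difference 1.27 ± 0.06 (SE), adjusted p = 3.23e-07), and for Dusp4, at 77.7 and 81.3 TPM in basal C57 libraries and 246 and 254 TPM in those at 1 hour (log2 difference 1.39 ± 0.10 (SE), adjusted p = 9.07e-06). Cish reached higher levels in SPRET, with 1.86 and 1.64 TPM in basal C57 libraries and 42.9 and 40.6 TPM in those at 1 hour (log2 difference 1.10 ± 0.11 (SE), adjusted p = 9.10e-05). Ahr was at 7.83 and 7.38 TPM in basal C57 libraries and 19.0 and 19.1 TPM in those at 1 hour (log2 difference 2.43 ± 0.13 (SE), adjusted p = 7.96e-07), and Plekhf1 at 1.42 and 2.43 TPM in basal C57 libraries and 11.4 and 12.1 TPM in those at 1 hour (log2 difference 2.10 ± 0.24 (SE), adjusted p = 3.88e-04). The neutrophil attractants Cxcl1 and Cxcl3 differed too, with Cxcl3 at 33.4 and 29.6 TPM in basal C57 libraries and 59.4 and 42.8 TPM in those at 1 hour (log2 difference 1.85 ± 0.25 (SE), adjusted p = 0.00117).

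The difference was not called for Socs1, which was at 1.74 and 4.79 TPM in basal C57 libraries and 155 and 220.1 TPM in those at 1 hour (log2 difference 1.59 ± 0.44 (SE), adjusted p = 0.105), nor for Ch25h (log2 difference -0.48 ± 0.21 (SE), adjusted p = 0.409), Myc (log2 difference 0.15 ± 0.11 (SE), adjusted p = 0.699) or Ccl7. Ccl7 was at 8.57 and 14.3 TPM in basal C57 libraries and 288 and 306 TPM in those at 1 hour, against 14.2 and 12.4 TPM in SPRET at 1 hour. Its log2 fold changes of 3.41 in SPRET and 4.62 in C57 gave an adjusted p of 0.220 from limma. In SPRET, Ccl7 was at 0 and 0.817 TPM in the basal libraries, where the pseudocount of 1 TPM understates changes. Without a pseudocount, the ratio of its group means was not smaller in SPRET than in C57. An adjusted p above the threshold does not show that the responses were equal.

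Differences below 0 included smaller rises and deeper falls. Flrt3, encoding a cell adhesion protein, and Ptgs2, encoding cyclooxygenase 2, were raised in C57 and not called in SPRET, at 2.59 and 2.52 TPM in basal C57 libraries and 15.6 and 14.04 TPM in those at 1 hour (log2 difference -2.14 ± 0.17 (SE), adjusted p = 2.45e-05) and at 3.35 and 3.47 TPM in basal C57 libraries and 16.1 and 16.5 TPM in those at 1 hour (log2 difference -2.02 ± 0.15 (SE), adjusted p = 1.38e-05). In SPRET, Flrt3 did not exceed 0.061 TPM and Ptgs2 did not exceed 0.479 TPM in these 4 libraries. The fall was deeper in SPRET for Sgk1, at 341 and 317 TPM in basal C57 libraries and 184 and 171 TPM in those at 1 hour (log2 difference -1.84 ± 0.09 (SE), adjusted p = 3.23e-07), and for Zfp36l2, Fos, Rgs2 and Tnf. Tnf was at 38.8 and 41.1 TPM in basal C57 libraries and 26.0 and 20.7 TPM in those at 1 hour (log2 difference -1.41 ± 0.18 (SE), adjusted p = 9.97e-04). Mir7231 is 60 bases long and was listed at 0 in all 4 C57 libraries, and its difference is uncertain.

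The later libraries of the SPRET time course show what became of the 1-hour levels. They share the basal libraries with the 1-hour comparison, so values are given side by side only. Trib1 was at 35.7 and 37.1 TPM at 1 hour and at 2.88 and 2.31 TPM and 2.13 and 1.88 TPM at 6 and 24 hours. Id1 went from 6.85 and 6.74 TPM to 0.949 and 0.312 TPM and 0.282 and 0.529 TPM. For both genes, the highest levels of the time course were those at 1 hour. Socs1 went from 196 and 214 TPM to 55.9 and 53.7 TPM and 39.7 and 41.5 TPM, and Myc from 114 and 107 TPM to 33.2 and 31.3 TPM and 37.3 and 31.4 TPM, which are above their basal levels.

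Other genes held their level or went on to rise. Cish was at 99.3 and 90.9 TPM at 6 hours and 96.7 and 92.9 TPM at 24 hours, and Egr2 at 145 and 149 TPM and 160.2 and 149 TPM. Irf4 was at 61.7 and 55.1 TPM and 74.3 and 60.4 TPM, Rnase2a at 194 and 169.8 TPM and 272 and 206 TPM, and Slc7a2 at 1179.7 and 1152 TPM and 1239.8 and 1136 TPM. Some genes that were not called at 1 hour were raised later. Arg1 reached 178 and 166 TPM and 579 and 472 TPM, Ccl22 reached 13.6 and 13.8 TPM and 148 and 130.0 TPM, and Retnla reached 4.47 and 2.45 TPM and 7.30 and 3.60 TPM. Of the lowered genes, Sgk1 was at 523 and 522 TPM and 714 and 746 TPM, and was not called at either time, and Tnf was at 13.9 and 16.1 TPM and 33.1 and 26.7 TPM. Id2, lowered at 1 hour, was at 129.8 and 113 TPM and 147 and 136 TPM, above its basal level. F630028O10Rik was at 1.07 and 0.731 TPM and 1.63 and 1.77 TPM.

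**Figure D5:**
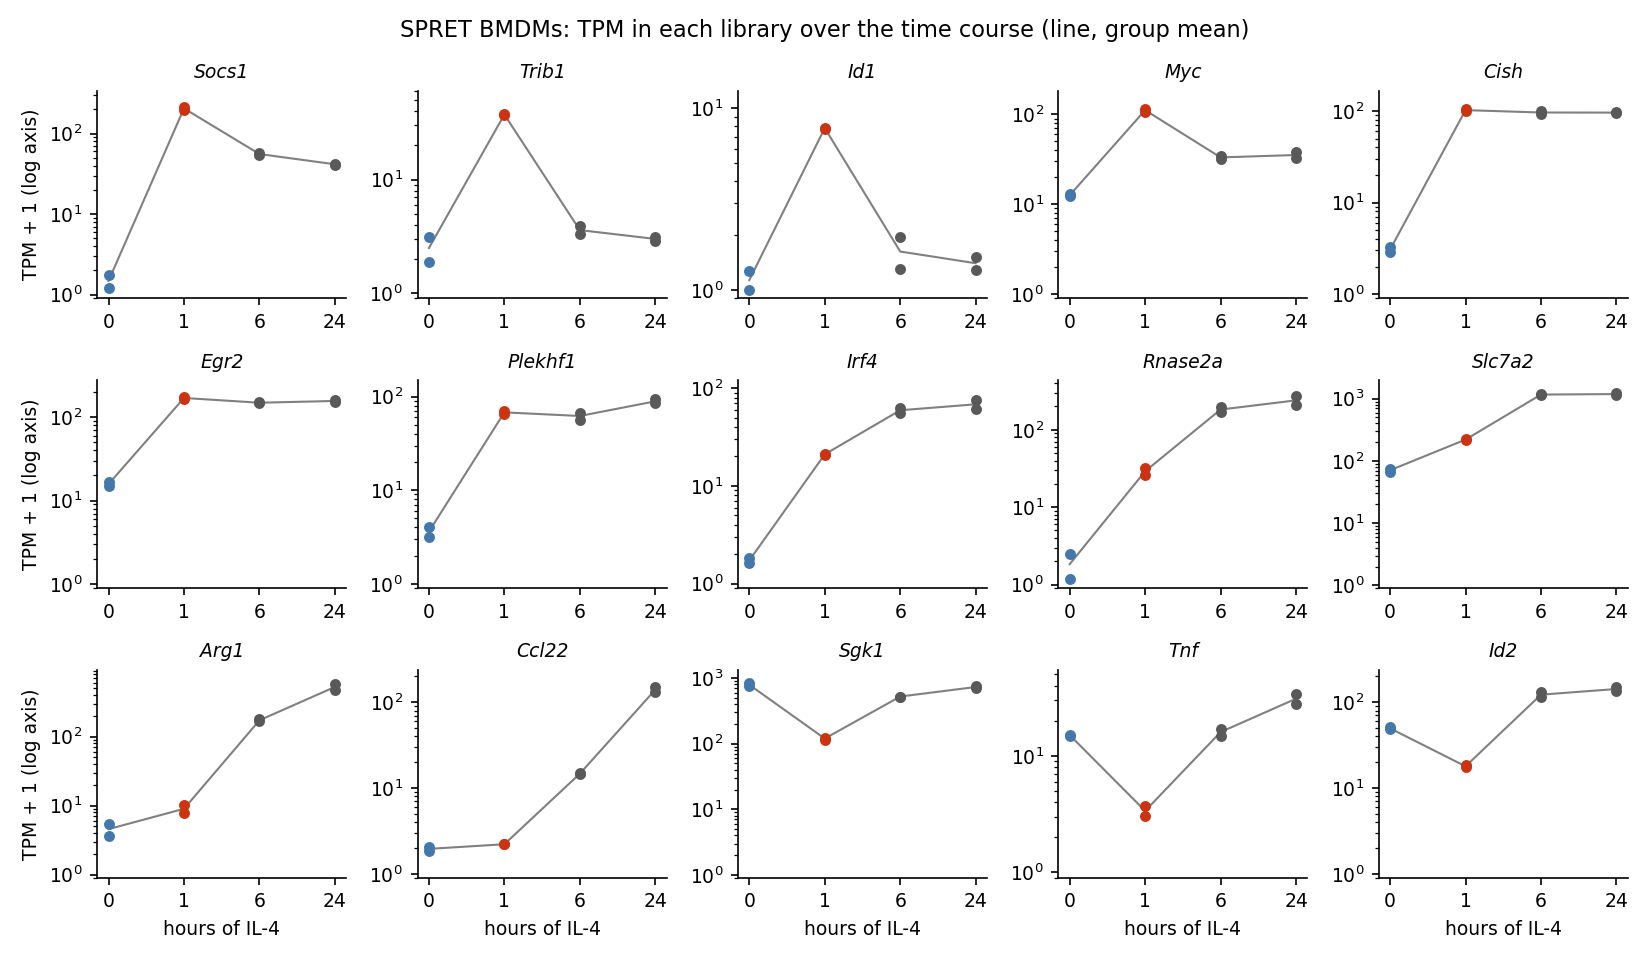
TPM plus 1 on a log axis in each SPRET library under basal conditions (blue) and after 1 (red), 6 and 24 hours of IL-4 (dark grey) for 15 genes, with lines joining group means and time points spaced evenly. Socs1, Trib1, Id1 and Myc are highest at 1 hour, Irf4, Rnase2a, Slc7a2, Arg1 and Ccl22 are higher at 6 and 24 hours than at 1 hour, and Sgk1, Tnf and Id2 are lowest at 1 hour.

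The called genes were also read in libraries that did not enter their choice. These held no SPRET library after 1 hour of IL-4, so the SPRET response at 1 hour was not itself repeated. The study's methods do not state the strain background of the Egr2 fl/fl mice, so their counts describe an overlap between different mice. In Egr2 fl/fl BMDMs after 1 hour of IL-4, 49 of 164 raised SPRET genes with a test were raised, where 0.604% of all genes were, and 155 of the 164 had a positive fold change. Of 55 lowered genes, 14 were lowered, where 0.174% of all genes were, and 54 had a negative fold change. Their medians were 0.66 and -0.67, against 0.03 for all genes of that table. Of the genes raised in SPRET, 42 were raised in C57 and in Egr2 fl/fl BMDMs as well. Socs1, Ch25h and Cish were among them, with log2 fold changes of 5.81, 4.88 and 3.61. Serpina3i, Rnase2a and Ccl24 were not called there, with values of 0.07, 0.56 and 0.26, and Cxcl1 was at 0.02. Flrt3 was raised in Egr2 fl/fl (1.68), and Ptgs2 was at 0.88, which was not called. These tables were normalized separately, and each test was made within its own table.

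In the separate SPRET libraries, 80 of 166 raised genes with a test were raised at 24 hours, where 2.32% of all genes were, and 17 of 56 lowered genes were lowered, where 1.62% of all genes were. The median was 0.96 for the raised genes and 0.11 for all genes. The exception was Snord68, the 1 raised gene that was lowered there. Rnase2a went from a mean of 0.293 TPM under basal conditions to 186 TPM after 24 hours in these 3 and 3 libraries, Clec7a from 26.0 TPM under basal conditions to 983 TPM after 24 hours and Ccl24 from 0.0697 TPM under basal conditions to 98.1 TPM after 24 hours. Serpina3i went from 0.539 TPM under basal conditions to 17.4 TPM after 24 hours, with a log2 fold change of 3.58, and Serpinb2 from 0.633 TPM under basal conditions to 22.3 TPM after 24 hours. Trem1, by contrast, went from 6.77 TPM under basal conditions to 12.2 TPM after 24 hours, a log2 fold change of 0.77 that was not called, and Trib1 was at 0.42. Sgk1 was at 0.18. Tnf was at -0.96 and not called there, whereas it was raised at 24 hours in the time course, with a log2 fold change of 1.03.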

How the data were processed

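RNA-seq values were the TPM (transcripts scaled by length and library size) that the authors deposited for each library. Per the study's methods, reads were mapped with STAR to the genome of each strain, for SPRET a genome built from its variants, and shifted to mm10 coordinates with MMARGE, and TPM were made with HOMER. Columns of the authors' DESeq2 comparisons hold fold changes and p-values and were not used. The deposited TPM hold no read counts, so no counting interval is given, and replicates set the precision. The number of tags per library was taken from the table's headers.

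Genes at 1 TPM or more in at least 2 libraries were tested (12088 of 24537) on log2(TPM + 1), which understates changes of low genes, with limma 3.58.1 in R 4.3.3 (empirical Bayes with trend), 1 mean for each of the 8 groups and Benjamini-Hochberg adjustment over all genes tested. Differences between SPRET and C57 were interaction contrasts of this model. The Egr2 fl/fl and separate SPRET tables were fitted alone. The code was tested on simulated data. Genes named were the 15 largest rises and 10 largest falls, called members of the gene lists, a set of IL-4 genes, and the 5 largest differences from C57 in each direction. Further names were chosen after their values were seen. The members and lists were chosen with earlier results of these data known. Alternatives were other pseudocounts, filters, scalings, smaller models, robust empirical Bayes, a replicate block and leaving out each library in turn, and the C57 counts under them were added after the data were seen. Human and other tables were not used here. The values of 1 gene of the named set are not reported here.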

Additional observations from a re-analysis of the deposited data

Results flagged for a closer look

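For 33 of the 85 named genes, the response at 1 hour differed between SPRET and C57 past 2-fold in limma's interaction test, at an adjusted p under 0.05. Over all genes tested, the difference was called above 0 for 0.563% and below 0 for 0.248%. Many named genes were picked for their change in SPRET, and the 5 largest differences in each direction for the difference itself. The counts given here therefore follow in part from that choice. Values are log2 differences, SPRET minus C57. The responses of 22 genes were higher in SPRET. Among genes of the SOCS family and NF-kB inhibitors, these were Cish (1.10), Socs2 (1.25) and Tnfaip3 (1.02). Among transcription factors, they were Egr2 (1.81), Batf3 (1.89), Atf3 (1.27), Jdp2 (1.16), Irf4 (1.00) and Ahr (2.43). Among chemokines, cytokines and receptors, they were Ccl24 (3.77), Cxcl1 (1.82), Cxcl2 (1.05), Cxcl3 (1.85), Csf1 (1.55) and Trem1 (3.02). Dusp4 (1.39) and Plk2 (1.02) belong to the immediate early list. Plekhf1 (2.10), Serpinb2 (3.00), Serpina3i (4.58), Rnase2a (4.17) and Snord68 (3.18) were among the largest rises, with Serpina3i and Rnase2a having close copies and Snord68 being shorter than 300 bases. The difference of Socs2 depends on the pseudocount of 1 TPM. In C57, Socs2 was at 0.133 and 0.141 TPM in the basal libraries and 1.07 and 0.648 TPM at 1 hour. Without a pseudocount, the ratio of its group means was not larger in SPRET than in C57.

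The responses of 11 genes were lower in SPRET. Sgk1 (-1.84), F630028O10Rik (-1.70), Fos (-1.47), Rgs2 (-1.41), Zfp36l2 (-1.62), Tnf (-1.41), Notch1 (-1.02) and Id2 (-1.08) were lowered in SPRET. Flrt3 (-2.14) and Ptgs2 (-2.02) were raised in C57 and not called in SPRET, and Mir7231 (-1.83) is shorter than 300 bases. In both directions, some calls lay close to the 2-fold limit. Irf4, at 1.0002, stood at the limit, and Tnfaip3 (1.02), Plk2 (1.02) and Notch1 (-1.02) were near it. The differences of these genes were not tested under other settings.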

How the results depend on the processing

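Of 118 alternative values of gene counts, 107 were within 1.5 times the value reported. A pseudocount of 5 TPM, which shrinks the fold changes of low genes, gave 108 raised and 29 lowered genes in SPRET in place of 171 and 57, 48 and 9 in C57 in place of 85 and 21, and 39 differences above 0 and 11 below 0 in place of 68 and 30. It also gave 29 and 7 genes raised and lowered in both SPRET and Egr2 fl/fl in place of 49 and 14, and 3 genes lowered in SPRET at 1 hour and in the separate SPRET libraries at 24 hours in place of 17. A pseudocount of 0.1 TPM gave 92 lowered genes. A filter of a mean of 5 TPM gave 18 differences below 0. Leaving out 1 library at a time gave 160 to 185 raised and 53 to 70 lowered genes, 56 to 69 differences above 0 and 21 to 30 below 0. With the replicate number as a block, 172 genes were raised and 56 lowered, with 67 and 27 differences. Same-numbered libraries at basal and 1 hour did not deviate together (r 0.00898), so the numbers are not taken to pair the samples. Of 1397 alternative values of single genes, 1373 kept direction and call, 20 lost the call, 4 gained it and 0 reversed, in 13 of 95 results. Beside the genes given in the report, Nfkbiz (-0.90), Plk2 (0.96), Ccl9 (0.97) and Mir7231 (-0.60) lost a call with a pseudocount of 5 TPM, and Ccl17 gained one with a pseudocount of 0.1 TPM (3.08). The alternatives for promoter shares were not run, because promoters covered too few genes. With 2 libraries a group and no read counts in the table, changes of genes below 1 TPM are the least certain.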

Other observations

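Genes in this section were chosen after their values were seen. Serpina3f, which has close copies, was at 0.062 and 0 TPM in the basal libraries and at 6.12 and 4.62 TPM at 1 hour, with log2 fold changes of 2.62 in SPRET and 0.12 in C57. Serpina3h, also with close copies, was listed at 0 in both basal libraries and at 2.46 and 2.12 TPM at 1 hour. Serpinb10 was at 8.37 and 7.74 TPM and then at 28.4 and 27.2 TPM, with log2 fold changes of 1.67 in SPRET and -0.03 in C57, a difference of 1.70 that was called. Ifi202b, an interferon-inducible gene with close copies, was at 10.5 and 8.003 TPM and then at 56.8 and 44.1 TPM, with 2.33 in SPRET and 0.04 in C57.

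Ripk2, encoding a kinase of NOD signalling, was at 14.5 and 14.9 TPM and then at 119.6 and 125 TPM, and Nfil3, encoding a bZIP repressor, at 14.7 and 16.5 TPM and then at 124 and 117 TPM. Cdkn1a, encoding the cell cycle inhibitor p21, was at 37.8 and 44.6 TPM and then at 181 and 168 TPM, with log2 fold changes of 2.06 in SPRET and 0.45 in C57. E2f8, encoding a repressor of cell cycle genes, fell from 38.2 and 37.9 TPM to 14.4 and 13.1 TPM, with -1.40 in SPRET and -0.19 in C57. Bcl6, encoding a repressor that opposes STAT6 at shared sites, fell from 22.9 and 28.3 TPM to 10.5 and 10.1 TPM, with -1.23 in SPRET and -1.30 in C57. The differences between strains were called for Cdkn1a (1.61) and E2f8 (-1.22), and not for Bcl6 (0.07).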
